A study of Paraphaeosphaeria sporulosa with 23 samples.

Results

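Transcript levels in cultures of the filamentous fungus Paraphaeosphaeria sporulosa that received no selenite were compared between day 6 and day 1. The libraries were chosen by their titles in the labels, Control_day6 (5 libraries) and Control_day1 (6 libraries), which makes 11 of the 23 libraries of the series. All 15164 genes of the deposited table are covered, and 13676 of them had enough reads to be tested. The other libraries were 3 controls at day 0 and cultures with 0.1 mM sodium selenite, 5 at day 1 and 4 at day 6. All groups were strain AP3s5-JAC2a, whole organism, grown from homogenised mycelium of a 14-day preculture, in the dark at room temperature, without agitation, in liquid AY medium made with yeast extract. The flasks had grown for 18 days before selenite was added to the treated flasks, and that moment was day 0. Day 1 is therefore day 19 of a flask and day 6 is day 24. The labels do not say whether control flasks received a liquid without selenite at day 0. They give all libraries the same batch and do not say whether each library came from a flask of its own, so the p-values cover only spread among these libraries, some of it perhaps technical.

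Paraphaeosphaeria sporulosa is an ascomycete that grows as hyphae, and the strain is known for oxidising dissolved manganese. In a still flask, a filamentous fungus forms a mat that uses up its medium while older hyphae stop growing, and such cultures usually pass from growth on fresh nutrients to a stationary phase. This is general background on fungal cultures. The RefSeq annotation and the deposited files give these genes locus tags without product names, so genes are named below by tag and position, and no role is given for any of them.

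The 11 libraries held 23282564 to 32678632 reads in genes, so 1 read was worth 0.0306 to 0.0430 CPM, the authors' read counts scaled to a common library total. Levels below are scaled CPM, the deposited CPM divided by a TMM factor, a library-wide factor that sets most genes level between libraries. They count reads per gene and not per base, so an order of genes by scaled CPM is an order by reads. These factors were 0.775 to 0.909 for the day 1 controls and 1.33 to 1.61 for the day 6 controls. Without them the median gene moved up by a further 0.62 on the log2 scale. Changes in scaled CPM and log2 changes below are therefore relative to most genes, except where library size alone is named. Shares of reads and counts of genes at 1 CPM do not use these factors. Replicates 1 and 3 of day 6 stood apart from replicates 2, 4 and 5. Across genes, they correlated at 0.981 with each other and at 0.939 to 0.962 with the other 3 libraries, which correlated at 0.974 to 0.977 among themselves. Values without the pair are also given below for the total of called genes, the 8-fold changes, the runs of neighbours, the lists by structure whose counts it moved by over 1.5 times, and the genes described in detail whose call rests on it.

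Between day 1 and day 6 a large share of the transcripts shifted, in both directions. Of 13676 genes tested, 5973 (43.7%) were called changed, with 2954 higher at day 6 (21.6%) and 3019 lower (22.1%). A call means a limma adjusted p under 0.05. Most changes were moderate, with a median absolute log2 change of 1.15 among called genes. Calls of at least 2-fold numbered 2021 higher (14.8%) and 1649 lower (12.1%), and calls of at least 8-fold numbered 81 higher (0.592%) and 103 lower (0.753%). Without day 6 replicates 1 and 3, all 81 and all 103 of the 8-fold genes kept their call. Of these, 36 of the 81 and 44 of the 103 were still at least 8-fold changed. Of the calls of at least 2-fold, 1495 of the 2021 higher and 1345 of the 1649 lower were kept. Tested against a 1.5-fold change, 1041 genes were higher (7.61%) and 1140 lower (8.34%). The 5 day 6 libraries did not overlap the 6 day 1 libraries in 3146 genes (23% of those tested), and 3066 of these were called (22.4%).

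The split between higher and lower depended on the scaling. With library size alone in place of the TMM factors, 6900 genes were called higher and 989 lower. All 2954 genes called higher were called higher in both scalings. Of the 3019 called lower, 989 were called lower in both, and 75 were called in opposite directions. Of the 1649 genes called at least 2-fold lower, 981 kept direction and call with library size alone, and 584 were still called at least 2-fold lower. All 2021 called at least 2-fold higher kept direction and call. So did all 103 genes called at least 8-fold lower and all 81 called at least 8-fold higher. Without day 6 replicates 1 and 3, 3950 genes were called, 2160 higher and 1790 lower. Of the 5973 calls, 3744 (62.7%) were also made without them, in the same direction.

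**Figure D1:**
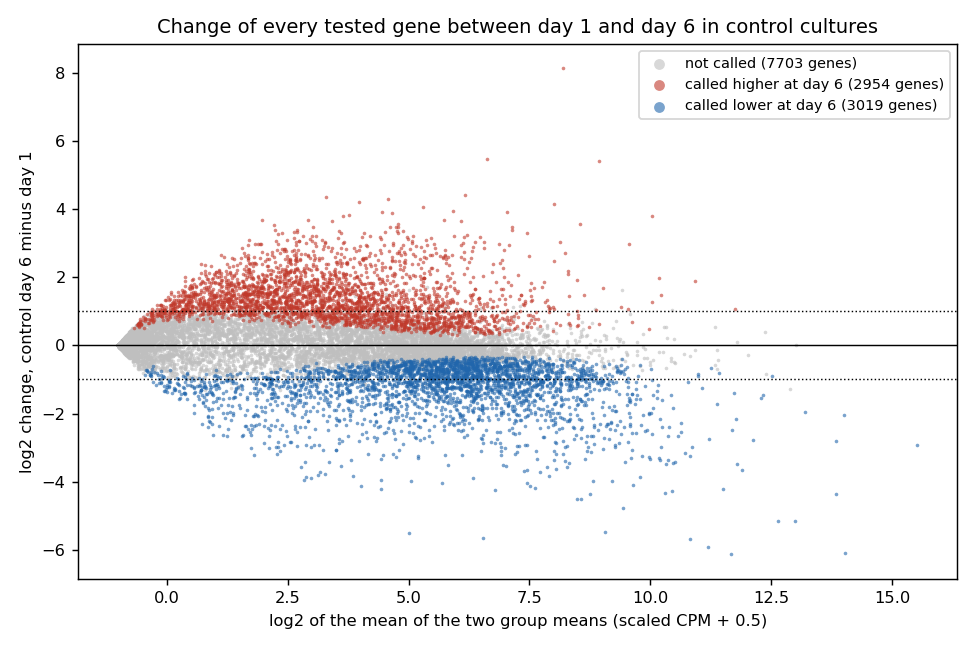
Log2 change from day 1 to day 6 of the control cultures (vertical) against the log2 of the mean of both group means in scaled CPM plus 0.5 (horizontal), 1 point for each of 13676 genes, with dotted lines at a 2-fold change. The 2954 genes called higher lie mostly at low and middle levels, and the 3019 called lower extend to the highest levels.

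Reads became spread over more genes by day 6. The measures in this paragraph use CPM without the TMM factors. A smaller share of reads in the top genes leaves more CPM for the rest, so the measures are not independent of each other. The number of genes with 1 CPM or more was 10134 ± 216 at day 1 (SD, n = 6) and 11257 ± 123 at day 6 (n = 5), with 9916 to 10540 genes in the day 1 libraries and 11107 to 11439 in the day 6 libraries. The groups were separate (exact two-sided permutation p = 0.00433, the smallest the design allows, and 0.0101 once adjusted over 7 library measures). In each library, the 100 genes with the most reads took 41.2% ± 2.83 of the reads at day 1 and 27.8% ± 3.23 at day 6, again without overlap and with the same exact p. The top 10 genes took 19.96% ± 2.76 and 11.6% ± 3.63, also with the same exact p. Genes without a read numbered 2783 ± 258 at day 1 and 2348 ± 324 at day 6 (exact permutation p = 0.0390, or 0.0682 when adjusted). Total reads were 28959876 ± 2709157 at day 1 and 27149877 ± 3254552 at day 6 (exact permutation p = 0.338, adjusted 0.359). The share of the single top gene was 5.74% ± 1.02 at day 1 and 4.16% ± 2.29 at day 6 (exact permutation p = 0.165, or 0.230 when adjusted). That difference of −1.58 percentage points was −0.18 without day 6 replicates 1 and 3 (exact permutation adjusted p = 0.881).

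**Figure D2:**
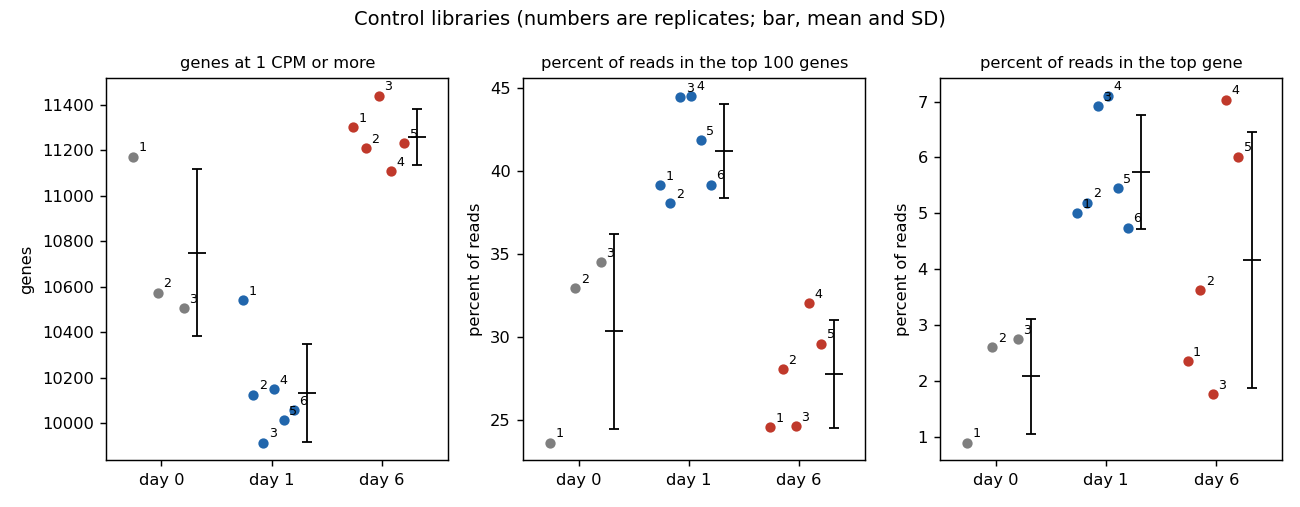
Number of genes reaching 1 CPM, percent of reads in the top 100 genes and percent of reads in the top gene (vertical axes) for each control library of days 0, 1 and 6, numbered by replicate, with the mean and SD beside each group. Day 6 lies above day 1 in the first panel and below it in the second without overlap, while in the third the day 6 libraries range from 1.77% to 7.04%.

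The genes called at least 2-fold lower took most of the reads at day 1. They held 54.5% ± 4.76 of the reads at day 1 (SD, n = 6) and 23.98% ± 8.78 at day 6 (n = 5). The genes called at least 2-fold higher held 2.15% ± 1.31 at day 1 and 11.4% ± 3.91 at day 6. Since the comparison itself selected these genes, the shares are a description with no test. In whole cultures, fewer cells of a kind and less transcript per cell cannot be told apart.

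The 12 largest rises, among called genes whose groups did not overlap and that reached a mean of 10 scaled CPM, had log2 changes of 3.85 to 8.15 (limma adjusted p 3.18e-10 to 9.70e-06). All 12 kept their call without day 6 replicates 1 and 3. CC84DRAFT_1138657 rose most. It lies on scaffold NW_017253361.1 at 2845729 to 2847183 (minus strand, 3 exons). Its scaled CPM in day 1 replicates 1 to 6 was 3.46, 1.05, 0, 4.56, 0.222 and 1.97, and in day 6 replicates 1 to 5 it was 855, 337, 1118, 335 and 268. Every day 6 library was far above every day 1 library, and replicates 1 and 3 were the highest. The log2 change was 8.15 ± 0.56 (SE, limma adjusted p 3.18e-10), and 7.54 without those replicates.

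CC84DRAFT_1112651, of 6 exons on the minus strand of the same scaffold at 3237199 to 3239599, took the most reads of the 12 at day 6. Its day 1 values were 232, 53.1, 3.16, 51.3, 3.63 and 4.12 scaled CPM, and its day 6 values were 1545, 726, 1417, 494 and 452. Day 1 replicate 1 was well above the other day 1 libraries and still below all of day 6. The log2 change was 5.43 ± 0.81 (limma adjusted p 8.29e-06). CC84DRAFT_1220563, on NW_017253368.1 at 943104 to 943577 (minus strand, 1 exon), had 31.8, 4.87, 0.937, 10.2, 0.593 and 0 scaled CPM at day 1. At day 6 it had 359, 161, 283, 70.0 and 66.3, a log2 change of 5.48 ± 0.77 (limma adjusted p 3.95e-06). Both genes repeated the order seen in the leading rise, with replicates 1 and 3 highest at day 6.

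CC84DRAFT_1202514 showed the other order. It has 4 exons on the plus strand of NW_017253361.1 at 1985010 to 1986617, and its day 1 libraries held 0.0406 to 0.627 scaled CPM. The day 6 values were 5.66, 16.3, 9.12, 20.7 and 39.7, so replicates 1 and 3 were the lowest there and still above all of day 1. The log2 change was 4.36 ± 0.42 (limma adjusted p 2.31e-08) and 5.04 without them. CC84DRAFT_1081866, of 3 exons on the minus strand of the same scaffold at 3803211 to 3805051, had no such separation, with 31.6, 18.3, 30.9, 21.8 and 42.2 scaled CPM at day 6 against 0 to 3.94 at day 1. Its log2 change was 4.22 ± 0.40 (limma adjusted p 1.70e-08). Of the 12, CC84DRAFT_1218581 and CC84DRAFT_1165529 are neighbours on the minus strand of NW_017253365.1, at 2425698 to 2427907 and 2428488 to 2431167. The former rose from 31.9 ± 19.3 to 484 ± 186 scaled CPM and the latter from 20.5 ± 23.5 to 239 ± 114.

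The 12 largest falls, chosen in the same way, had log2 changes of −6.14 to −4.52 (limma adjusted p 1.62e-09 to 5.30e-06). All 12 kept their call without day 6 replicates 1 and 3. The gene with the largest fall was STRG.39, a gene model that the authors added to the annotation, with 2 exons on the minus strand of NW_017253360.1 at 149216 to 149956. Its day 1 libraries held 4207, 4953, 8858, 8333, 7099 and 4959 scaled CPM, and its day 6 libraries 17.0, 126, 71.1, 240 and 130. All day 6 libraries lay far below day 1, with replicates 1 and 3 lowest. The log2 change was −6.14 ± 0.57 (limma adjusted p 1.53e-08), and −5.17 without those replicates.

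CC84DRAFT_1214642, of 3 exons on the plus strand of NW_017253362.1 at 825524 to 827971, took a large share of the day 1 reads. It held 23278, 24866, 41690, 42724, 35695 and 28556 scaled CPM at day 1, or 2.704% ± 0.58 of all reads. At day 6 it held 66.7, 575, 255, 1652 and 1275. The fall passed 10-fold in every day 6 library set against the lowest day 1 library, with a log2 change of −6.11 ± 0.62 (limma adjusted p 4.25e-08). CC84DRAFT_1103819, of 3 exons on the minus strand of NW_017253373.1 at 240169 to 242140, went from 15875 ± 3630 scaled CPM (SD, n = 6) to 517 ± 288 (n = 5). CC84DRAFT_1162161, of 3 exons on the plus strand of NW_017253362.1 at 974732 to 976389, went from 12259 ± 2320 to 461 ± 314. Neither gene's groups overlapped.

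Lower in level, CC84DRAFT_1207412 was near 0 outside day 1 in the control cultures, while selenite cultures held a mean of 37.8 ± 41.1 scaled CPM at day 6 (SD, n = 4). It has 4 exons on the minus strand of NW_017253366.1 at 2319233 to 2320776. Its day 1 values were 59.4, 32.4, 88.0, 60.4, 81.2 and 53.0 scaled CPM, and its day 6 values were 0.844, 1.05, 0.587, 0.111 and 2.37. The 3 day 0 libraries held 0, 0 and 0.413. The log2 change from day 1 to day 6 was −5.51 ± 0.44 (limma adjusted p 1.62e-09). CC84DRAFT_1166068, of 3 exons on the minus strand of the same scaffold at 1421728 to 1423501, went from 180 ± 52.1 to 5.23 ± 5.40 scaled CPM, with 1.75, 10.99 and 4.82 in the day 0 libraries.

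**Figure D3:**
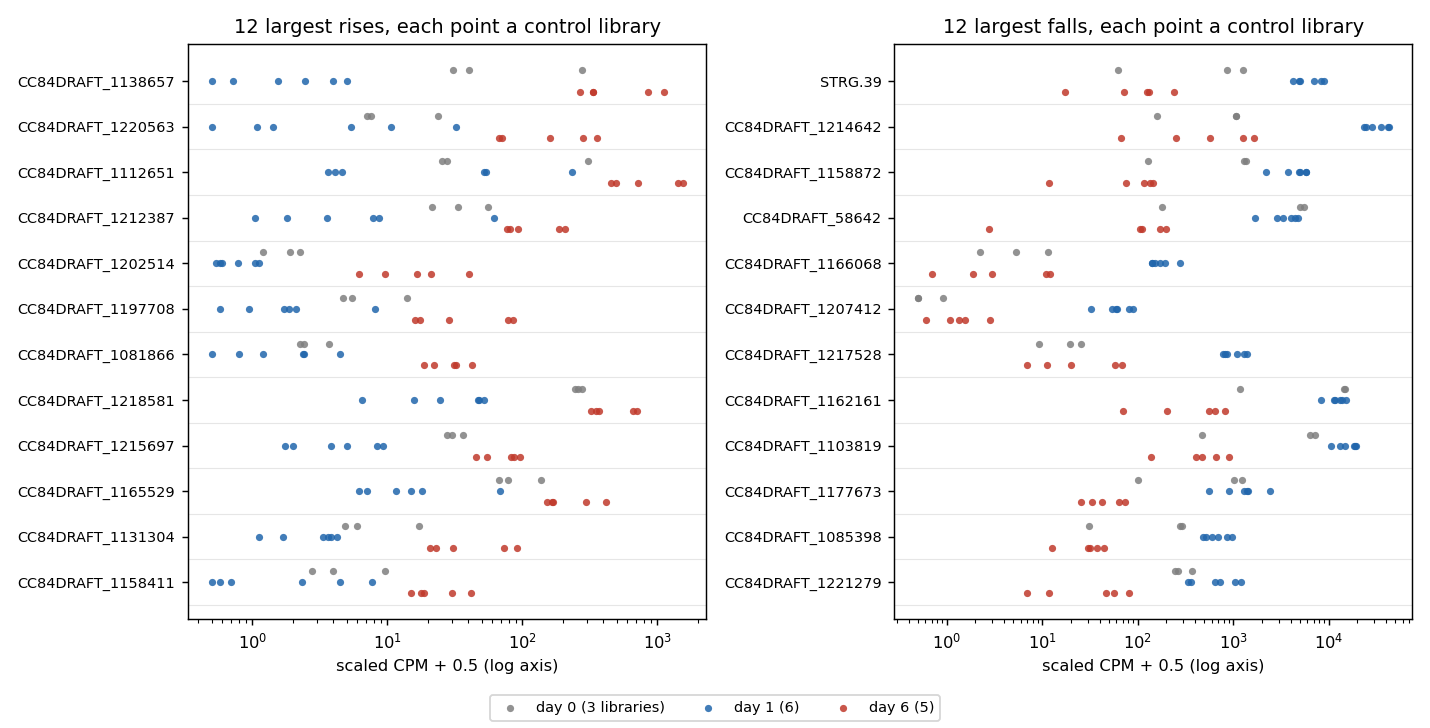
Scaled CPM plus 0.5 on a log axis (horizontal) for the 12 largest rises and the 12 largest falls, 1 point for each control library of day 0 (grey), day 1 (blue) and day 6 (red). In each gene the day 1 and day 6 points do not overlap, and for CC84DRAFT_1207412 the day 0 points lie with day 6.

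The 5 genes with the largest rise in absolute level are not among the 12 largest rises by fold. CC84DRAFT_243126, of 2 exons on the minus strand of NW_017253370.1 at 27454 to 28658, gained most. It held 3716, 2173, 1946, 2299, 1783 and 1757 scaled CPM at day 1 and 4291, 4774, 4572, 4642 and 4793 at day 6. The day 6 libraries were close together and above all of day 1, with a log2 change of 1.07 ± 0.23 (limma adjusted p 5.41e-04). CC84DRAFT_1186171, of 4 exons on the minus strand of NW_017253363.1 at 1502820 to 1504137, went from 799 ± 282 to 3076 ± 1193, a log2 change of 1.90 ± 0.30 (limma adjusted p 1.73e-05). CC84DRAFT_8385, of 13 exons on the minus strand of NW_017253360.1 at 524898 to 527882, held 1233, 255, 61.8, 200, 27.6 and 38.7 at day 1 and 2183, 1302, 2233, 1548 and 1764 at day 6. Its log2 change was 3.79 ± 0.61 (limma adjusted p 2.30e-05). The next gene on that strand, CC84DRAFT_1158872 at 528907 to 530737, is among the 12 largest falls, from 4580 ± 1383 to 96.0 ± 54.3 scaled CPM.

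CC84DRAFT_1180339, of 1 exon on the minus strand of NW_017253371.1 at 86589 to 87170, took the most reads by the mean of each group. It held 55101, 62061, 89261, 88498, 66016 and 55996 scaled CPM at day 1. At day 6 it held 584, 25844, 1762, 52968 and 42654. All day 6 values were below all day 1 values, but replicates 1 and 3 were far lower than the other 3. In those replicates another gene, CC84DRAFT_1223420, took the most reads, with 2.35% and 1.77%. The log2 change of CC84DRAFT_1180339 was −2.91 ± 0.99 (limma adjusted p 0.0192). Without those replicates it was −0.70 (limma adjusted p 0.493), so the call rests on them. Leaving out either alone gave limma adjusted p-values of 0.0976 and 0.0803, the 11 libraries fitted alone gave 0.152 and the edgeR test 0.0868. CC84DRAFT_666498, of 1 exon on the plus strand of NW_017253363.1 at 2629812 to 2631440, fell from 23591 ± 7288 to 5738 ± 4801 with a log2 change of −2.81 ± 0.73 (limma adjusted p 0.00287). It also lost its call without them, at −1.24 (limma adjusted p 0.103). CC84DRAFT_1226245, of 3 exons on the minus strand of NW_017253360.1 at 2996894 to 2999243, fell by 2.05 ± 0.62 on the log2 scale (limma adjusted p 0.00909), and its value without them was −1.07 (limma adjusted p 0.140), while the 11 libraries fitted alone gave an adjusted p of 0.0533. By contrast CC84DRAFT_1184315, of 3 exons on the plus strand of NW_017253361.1 at 2704319 to 2705482, fell from 27350 ± 4553 to 2022 ± 1707, and its log2 change was −4.35 ± 0.60 with them and −3.27 without (limma adjusted p 3.39e-06 and 8.23e-05). Among the 100 genes with the highest mean over the 11 libraries, CC84DRAFT_1223420 had the change nearest 0, with a log2 value of 0.03 ± 0.36 (limma adjusted p 0.972) and levels of 7833 ± 1108 at day 1 and 8595 ± 4060 at day 6. That value near 0 averages libraries that differed, with means of 12791 in day 6 replicates 1 and 3 and 5798 in the other 3. With library size alone the gene was called higher, at 0.85 (limma adjusted p 0.0248).

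Genes with the highest mean over the 11 libraries were mostly called lower. That mean holds the same libraries as the contrast, so a gene could enter a high class through 1 day alone. CC84DRAFT_1214642 did so, with 32802 scaled CPM at day 1 and 765 at day 6. The choice thus partly fixes the counts and shares of these classes, which are a description. Of the 100 genes with a mean of at least 1000 scaled CPM over the 11 libraries, 66 (66%) were called lower and 5 (5%) higher, beside 22.1% and 21.6% over all genes tested, and the median log2 change was −1.54 beside 0.03 over all genes tested. With library size alone the median was −0.72 and the counts were 55 lower and 16 higher. These 100 genes took 40.2% ± 3.04 of the reads at day 1 and 24.4% ± 4.84 at day 6. Of the 1693 genes at 100 scaled CPM or more, 1016 (60%) were called lower and 149 (8.8%) higher, with a median of −0.67. That median turned to 0.15 with library size alone, where 573 were called higher and 410 lower. At the other end, 1072 (20.7%) of the 5178 genes under 5 scaled CPM were called higher, near the share over all genes, and 316 (6.1%) lower, with a median of 0.22 and, with library size alone, 0.60. Without day 6 replicates 1 and 3, 672 of them were called higher and 164 lower, beside 2160 and 1790 over all genes tested. The groups of at least 1000 and of 5 to 100 scaled CPM were added to the lists after the data had been seen.

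Genes were also counted by structure and position. Over all genes tested, 21.6% were called higher and 22.1% lower. Of 320 STRG gene models in the table, 278 were tested. Of these, 54 (19.4%) were called higher and 36 (12.9%) lower, with a median log2 change of 0.09. Of 234 genes with 8 or more exons, 75 (32.1%) were called higher and 44 (18.8%) lower, with a median of 0.20, beside 21.6% and 22.1% over all genes tested. Of 3337 genes of 1 exon, 621 (18.6%) were called higher and 607 (18.2%) lower, with a median of 0.04. Of 875 genes with under 500 exonic bases, 121 (13.8%) were called higher and 148 (16.9%) lower, with a median of 0.03. Of 189 genes with over 5000 exonic bases, 47 (24.9%) were called higher and 41 (21.7%) lower, with a median of 0.01. Of 324 genes that start within 30 kb of a scaffold end, 64 (19.8%) were called higher and 59 (18.2%) lower, with a median of 0.02. Among 1102 genes in overlapping convergent pairs, 267 (24.2%) were called higher and 244 (22.1%) lower, with a median of 0.05. Among 3211 genes in divergent pairs within 500 bases, 639 (19.9%) were called higher and 819 (25.5%) lower, with a median of −0.05. That median was 0.66 with library size alone, beside 0.65 over all genes. Without day 6 replicates 1 and 3 the divergent pairs had 474 called higher and 428 lower, beside 2160 and 1790 of the 13676 genes tested. The counts, higher and then lower, were then 33 and 23 for the STRG models, 55 and 26 for genes of 8 or more exons, and 441 and 376 for genes of 1 exon. They were 77 and 78 for genes under 500 exonic bases, 38 and 14 for those over 5000, and 201 and 139 for convergent pairs. Of 62 tRNA genes tested, of 104 in the table, 7 (11.3%) were called higher and 1 (1.61%) lower. Libraries were made from messenger RNA with a poly(A) tail, so reads on tRNA genes are not a measure of tRNA. Without day 6 replicates 1 and 3 the tRNA counts were 16 higher and 0 lower.

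Called genes also lay side by side. Along the scaffolds, 47 runs of at least 4 neighbouring genes were all called in 1 direction with at least a 2-fold change, 32 of them higher and 15 lower, with 210 genes in all. Runs were counted as a description, with no chance expectation. Without day 6 replicates 1 and 3 there were 17 runs, 14 higher and 3 lower. The longest run held 8 genes called higher, CC84DRAFT_1135097 to CC84DRAFT_1226725, on NW_017253360.1 at 3540650 to 3554806, with log2 changes of 1.22 to 2.596. Its levels were low, with the exception of CC84DRAFT_123240, which held 55.7, 8.48, 11.7, 16.1, 6.78 and 8.68 scaled CPM at day 1 and 107, 77.7, 124, 66.1 and 57.0 at day 6. CC84DRAFT_1135097 had no read in the 6 day 1 libraries and 443 reads in the 5 day 6 libraries, where its mean was 2.27 ± 1.06 scaled CPM. Against a floor of 3 reads in each day 1 library this was at least 18.0-fold higher. Of the 8 genes, 6 kept their call without day 6 replicates 1 and 3, and the longest run on any scaffold then held 5 genes. CC84DRAFT_1226725, at the end of the run, also lost its call with the DESeq2 test (adjusted p 0.0752) and the edgeR test (0.138). CC84DRAFT_1079376 lost it with the edgeR test as well (adjusted p 0.0623).

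The longest runs called lower held 6 genes, and the one with the largest median change was CC84DRAFT_1254941 to CC84DRAFT_158157, on the same scaffold at 4316077 to 4326922, with log2 changes of −2.95 to −1.07. CC84DRAFT_1109448, of 2 exons on the plus strand at 4320086 to 4321866, took the most reads of them, with 1403, 2042, 1418, 1328, 1150 and 1184 scaled CPM at day 1. At day 6 it held 162, 336, 202, 303 and 214, a log2 change of −2.57 ± 0.24 (limma adjusted p 1.56e-08). Its neighbour CC84DRAFT_1109444, of 2 exons on the minus strand at 4318424 to 4319951, went from 545 ± 124 to 75.1 ± 32.9. In this run 5 of 6 genes kept their call without day 6 replicates 1 and 3. With library size alone the genes at both ends lost it, CC84DRAFT_1254941 at −0.26 (limma adjusted p 0.565) and CC84DRAFT_158157 at −0.26 (limma adjusted p 0.377). A run of 4 on NW_017253365.1, at 2425698 to 2436439, begins with the neighbours CC84DRAFT_1218581 and CC84DRAFT_1165529 named above, and its median log2 change was 3.02.

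**Figure D4:**
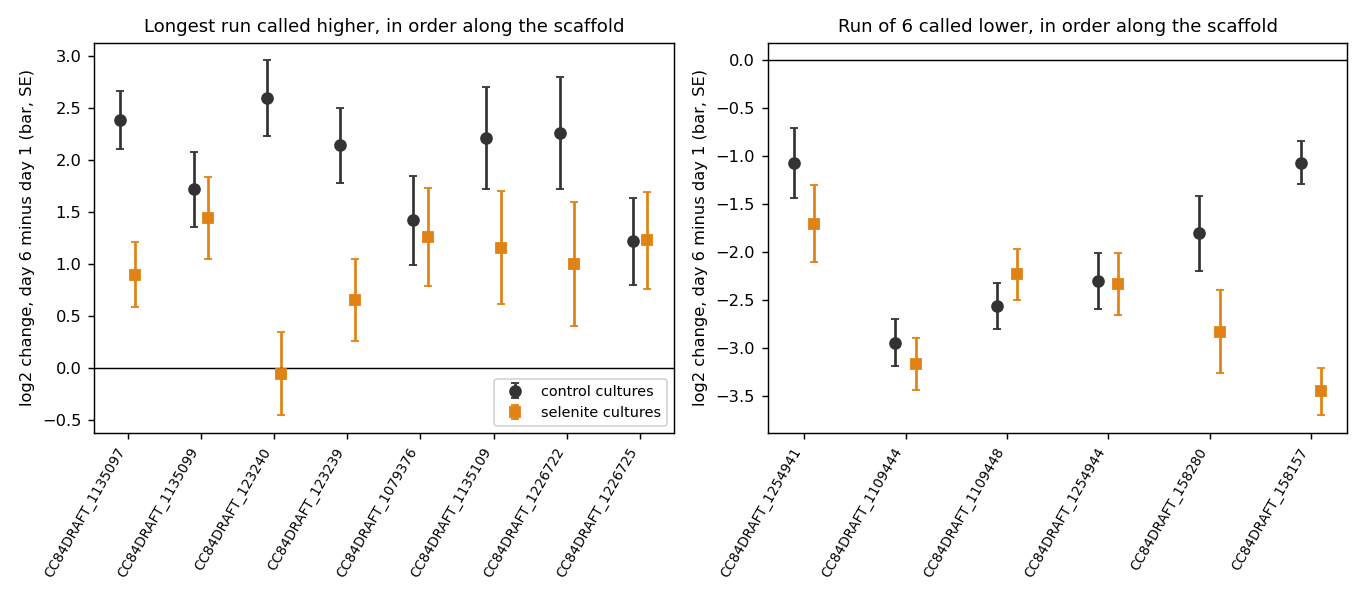
Log2 change from day 1 to day 6 with its SE (vertical) for the genes of the 8-gene run called higher and of the 6-gene run called lower, in order along scaffold NW_017253360.1, in control cultures (dark circles) and selenite cultures (orange squares). The control changes are 1.22 to 2.596 in the former and −2.95 to −1.07 in the latter.

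The separation of day 6 replicates 1 and 3 was followed gene by gene. It is a description of libraries that carry the same label, with no test between them. CC84DRAFT_1164934, of 1 exon on the plus strand of NW_017253365.1 at 547907 to 548591, held 19.8, 22.8, 51.6, 58.0, 18.8 and 23.3 scaled CPM at day 1. At day 6 replicates 1 and 3 held 0.0496 and 1.01, while replicates 2, 4 and 5 held 89.7, 79.2 and 73.4. The pair lay below all of day 1 and the other 3 above it. The change over all 5 was −1.13 ± 0.93 on the log2 scale (limma adjusted p 0.349), and without the pair it was 1.56 (limma adjusted p 0.00487). CC84DRAFT_1167663, of 1 exon on the plus strand of NW_017253369.1 at 434915 to 436612, had the same form, with 5.74 to 14.7 scaled CPM at day 1, 0.199 and 0.320 in the pair, and 31.3, 47.7 and 43.3 in the others. CC84DRAFT_1218371, of 1 exon on the plus strand of NW_017253365.1 at 1813499 to 1813822, went from 472 to 2610 at day 1 to 4.47 and 3.87 in the pair and to 391, 352 and 477 in the others. Its log2 change was −4.10 ± 0.90 (limma adjusted p 6.90e-04) with the pair and −1.42 (limma adjusted p 0.00445) without it. In the other direction the separation was smaller. CC84DRAFT_1255865, of 7 exons on the minus strand of NW_017253361.1 at 1991023 to 1993226, held 26.2 and 25.9 in the pair and 7.07, 3.27 and 6.06 in the others, against 0 to 12.3 at day 1. It was called higher with the pair and not without it, at 1.21 (limma adjusted p 0.228).

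Both replicates were above the other 3 in 1189 of the 2021 genes called at least 2-fold higher (58.8%), and in 22.9% of all genes tested. Both were below the other 3 in 954 of the 1649 genes called at least 2-fold lower (57.9%), and in 21.9% of all genes tested. These genes were chosen by a contrast that holds the pair, so the shares are a description. Day 1 replicate 1 lay toward day 6 within its own group. It was the highest of the 6 day 1 libraries in 60.4% of the genes called at least 2-fold higher and in 27.7% of all genes tested. It was the lowest in 55.7% of the genes called at least 2-fold lower and in 34.3% of all genes tested. Its part in the results was not tested beyond leaving it out, which gave 6405 called genes. With both this library and the pair left out, 4684 genes were called, 2227 higher and 2457 lower.

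**Figure D5:**
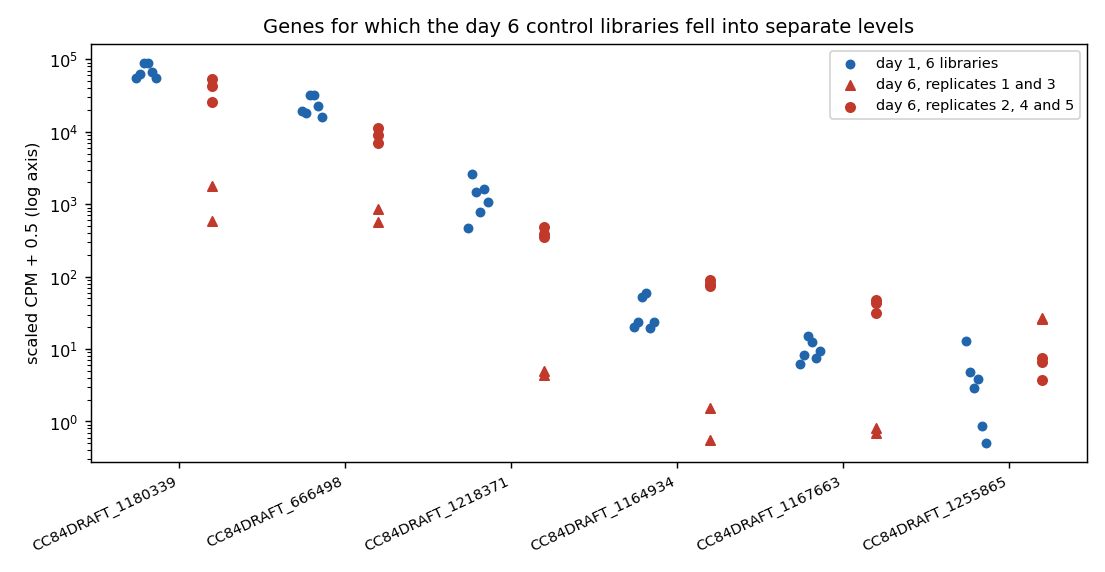
Scaled CPM plus 0.5 on a log axis (vertical) for 6 genes (horizontal), with the 6 day 1 libraries as blue circles, day 6 replicates 1 and 3 as red triangles and day 6 replicates 2, 4 and 5 as red circles. The triangles lie below the red circles in the first 5 genes and above them in CC84DRAFT_1255865.

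Selenite cultures were sampled at the same days, and the change over the interval was compared between both kinds of culture, which share no library. The change differed for 5930 of 13676 genes (43.4%, limma adjusted p under 0.05 for the difference). In selenite cultures 3418 genes (25%) were called higher at day 6 and 3040 (22.2%) lower. Of the 2954 genes called higher in controls, 752 (25.5%) were called higher with selenite and 489 (16.6%) lower. Of the 3019 called lower in controls, 915 (30.3%) were called lower with selenite and 770 (25.5%) higher. Among controls' rises and falls alike, 25.5% were called higher with selenite, near the 25% over all genes tested.

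For all 12 largest rises of the control cultures the change differed between the cultures, none was called higher with selenite, and 5 were called lower. These genes, like the 12 falls, were chosen by their control change, which is also a term of the difference, so that a difference is partly fixed by the choice. CC84DRAFT_1138657 went from a mean of 17.7 to 3.902 scaled CPM with selenite, a log2 change of −2.18 ± 0.62 (limma adjusted p 0.00553), and the difference from controls was −10.33 ± 0.84 (limma adjusted p 3.19e-09). CC84DRAFT_1131304, of 4 exons on the minus strand of NW_017253374.1 at 649153 to 651496, went from 2.49 ± 1.27 to 47.4 ± 32.4 in controls and from a mean of 489 to 23.1 with selenite. CC84DRAFT_8385 rose by 3.79 in controls and fell by 3.72 ± 0.68 with selenite (limma adjusted p 8.15e-05). Of the 12 largest falls, 9 were also called lower with selenite, and for 9 the size of the change differed. STRG.39 fell by 3.19 ± 0.63 with selenite (limma adjusted p 2.09e-04), 2.95 ± 0.85 less than in controls (limma adjusted p 0.00696). CC84DRAFT_1221279, of 3 exons on the plus strand of NW_017253369.1 at 1282361 to 1283749, changed by −4.52 ± 0.49 in controls and −4.36 ± 0.54 with selenite, with a difference of 0.15 ± 0.73 (limma adjusted p 0.883). CC84DRAFT_1177673, of 2 exons on the minus strand of NW_017253366.1 at 879445 to 881128, changed by −4.78 ± 0.46 in controls and by 0.17 ± 0.51 with selenite (limma adjusted p 0.812 for the latter and 3.41e-06 for the difference). All 6 genes of the run called lower were also called lower with selenite, and 4 of the 8 genes of the run called higher were also called higher.

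The day 0 controls give the level before the interval. The comparisons with day 0 share the day 1 or day 6 libraries with the main one, so the values are set side by side only. Of the 2021 genes called at least 2-fold higher at day 6, the day 0 mean lay between the other means in 1453, below both in 303 and above both in 265. Of the 1649 called at least 2-fold lower, it lay between them in 954, below both in 501 and above both in 194. No such counts were made over all genes, and choosing genes by a wide gap between day 1 and day 6 favours a mean between. The day 0 means rest on 3 libraries that differed, with TMM factors of 1.55 for replicate 1 and 1.07 and 1.03 for replicates 2 and 3. Among the 12 largest rises, CC84DRAFT_1218581 held 275, 244 and 259 scaled CPM at day 0, 6.05 to 51.6 at day 1 and 323 to 707 at day 6, a dip at day 1. CC84DRAFT_1202514 held 1.75, 0.701 and 1.41 at day 0, below all of its day 6 libraries. Among the falls, CC84DRAFT_1214642 held 160, 1061 and 1066 at day 0, far below its day 1 level. CC84DRAFT_1162161 held 1167, 14340 and 14805, with day 0 replicate 1 low and the other libraries near day 1. CC84DRAFT_1180339 held 1097, 1685 and 1685 scaled CPM at day 0, near the level of day 6 replicates 1 and 3.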

How the data were processed

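Per the labels' protocols, total RNA of whole cultures was cleaned with an on-column DNase step, and stranded messenger RNA libraries were prepared. STAR 2.7.1a, Trimmomatic 0.39, edgeR 3.36.0, R 4.1.0 and Subread 2.0.6 with its featureCounts are named in the submitters' processing notes. Which genome build was used is not given in the sources used. Counting used strand and counted mates singly, per the file headers, so reads are not independent molecules and floors cover counting error only. The values are the authors' deposited CPM, read counts per gene scaled to a common library total. Gene positions and exonic lengths come from the deposited count table, counted from 1. Of 14844 locus tags, 14839 matched the RefSeq table of assembly Parsp1, which repeats the tags as symbols, so lists by product name, protein or promoter could not be run.

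All 348772 CPM values (100%) were whole reads within 1e-06 reads, and these reads served for TMM factors (edgeR 4.0.16), filtering and the count models. filterByExpr (minimum count 10, minimum total 15) kept 13676 of 15164 genes. The main test was limma 3.58.1 in R 4.3.3 with a variance trend on log2(CPM divided by the TMM factor, plus 0.5), 23 libraries, 5 group means and no block, with two-sided Benjamini-Hochberg adjusted p-values over all genes. Fold changes on this scale understate those of low genes. Errors are SE for log2 changes and SD for levels. Library measures were tested by exact permutation (scipy 1.17.1) over 462 splits, adjusted over 7 measures. The code was tested on simulated data, where the pass limit for genes recovered was lowered after a first failure. That test checks the code and not the power to find changes. On the reads recovered, the edgeR quasi-likelihood test called 5376 genes, DESeq2 1.42.0 called 5842 and limma-voom 6038.

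Named genes were the 12 largest rises and 12 largest falls among called genes without overlap and with at least 10 scaled CPM in the higher group; the 5 largest rises and falls in level; the top gene of each group; the longest runs; 3 usual changes each way; 3 genes each way that most separated the day 6 libraries; and the steadiest of the top 100. The genes in the plot of separate levels were picked from these after their values were seen. Members, lists and tests were chosen with earlier results of these data known. Alternatives covered scaling, pseudocount, filter, libraries fitted, model, replicate block and replicates left out.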

Additional observations from a re-analysis of the deposited data

Results flagged for a closer look

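In 17 of 134 groups of values tested, 1 library lay far from the others of its group. Chance would give about 6.7 if the groups were independent. They share libraries, and most hold genes chosen from the same values, so no excess can be read from these counts. All 17 were in the day 1 controls, and replicate 1 was the highest library in 16. Among the largest rises it held 31.8 scaled CPM for CC84DRAFT_1220563 (others up to 10.2), 232 for CC84DRAFT_1112651 (up to 53.1), 60.9 for CC84DRAFT_1212387 (up to 8.19), 7.66 for CC84DRAFT_1197708 (up to 1.62) and 67.7 for CC84DRAFT_1165529 (up to 17.7). Among genes with the largest gain in level it held 3716 for CC84DRAFT_243126 (others up to 2299), 1370 for CC84DRAFT_1186171 (up to 750), 1233 for CC84DRAFT_8385 (up to 255) and 878 for CC84DRAFT_1067486 (up to 214). Within the 8-gene run it held 55.7 for CC84DRAFT_123240, 0.839 for CC84DRAFT_123239 (no read in the others), 11.96 for CC84DRAFT_1079376 and 3.08 for CC84DRAFT_1135109. It also held 120 for CC84DRAFT_158157 (others up to 86.3), 12.3 for CC84DRAFT_1255865 (up to 4.26) and 422 for CC84DRAFT_1175385 (up to 37.3). The remaining case was replicate 2, with 2042 for CC84DRAFT_1109448 (others 1150 to 1418). In deviations from the group means across genes, day 1 replicate 1 correlated at 0.40 with day 6 replicate 1 and at 0.48 with day 6 replicate 3.

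The change from day 1 to day 6 differed between selenite and control cultures for 5930 genes by the limma test of the difference, among them 36 of the 60 genes chosen by the naming rule. Most of these were chosen by the control change, which is a term of the difference, so the choice partly fixes it. The values here are the selenite change minus the control change, log2. Among the 12 largest rises they were −10.33 for CC84DRAFT_1138657, −8.19 for CC84DRAFT_1131304, −7.03 for CC84DRAFT_1112651, −5.76 for CC84DRAFT_1220563, −5.66 for CC84DRAFT_1218581, −5.38 for CC84DRAFT_1081866, −5.33 for CC84DRAFT_1212387, −5.22 for CC84DRAFT_1215697, −4.93 for CC84DRAFT_1202514, −4.65 for CC84DRAFT_1158411, −3.27 for CC84DRAFT_1165529 and −3.23 for CC84DRAFT_1197708. Among the falls they were 4.94 for CC84DRAFT_1177673, 4.49 for CC84DRAFT_1166068, 3.98 for CC84DRAFT_58642, 3.67 for CC84DRAFT_1214642, 3.15 for CC84DRAFT_1085398, 2.97 for CC84DRAFT_1207412, 2.95 for STRG.39, 2.89 for CC84DRAFT_1103819 and 2.41 for CC84DRAFT_1217528. Genes with the largest gain in level had −7.51 (CC84DRAFT_8385), −3.18 (CC84DRAFT_1067486), −2.81 (CC84DRAFT_1186171), −2.08 (CC84DRAFT_243126) and −1.86 (CC84DRAFT_1168013). Run members had −2.65 (CC84DRAFT_123240), −2.38 (CC84DRAFT_158157), −1.49 (CC84DRAFT_1135097) and −1.49 (CC84DRAFT_123239). Genes chosen as usual changes had 1.66 (CC84DRAFT_1165014), 0.87 (CC84DRAFT_1160921), 0.85 (CC84DRAFT_1258831) and −0.72 (CC84DRAFT_1081735). The difference was 3.84 for CC84DRAFT_1218371 and −4.37 for CC84DRAFT_1223420, the gene among the 100 highest with the control change nearest 0, which was called higher at 0.85 in controls with library size alone (limma adjusted p 0.0248).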

How the results depend on the processing

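The 24 largest changes kept direction and call in all 27 alternatives. These are the 12 rises and 12 falls above, chosen as called, without overlap and large. The choice partly fixes that they kept their call, and this does not carry over to other called genes. With library size alone, calls were 6900 higher and 989 lower. Without Control_day6 replicates 1 and 3, 3950 genes were called, 1790 of them lower, runs numbered 17, the STRG share changed by −0.380 percentage points (exact permutation adjusted p = 0.0417) and total reads by 194688. Runs numbered 160 at 3 or more genes and 126 at any fold. Chosen after seeing the data, leaving out Control_day1 replicate 1 as well changed total reads by 694421, genes at 1 CPM or more by 1130, the top 10 share by −6.59 and the top 100 share by −11.7, the last 3 at an exact permutation adjusted p of 0.0625, where 5 against 3 libraries allow no raw p under 0.0357.

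Leaving out 1 replicate gave 5141 to 6405 called genes (2482 to 3185 higher, 2650 to 3220 lower), and changes of 1078 to 1205 in genes at 1 CPM or more, −542 to −323 in genes without a read (adjusted p 0.0278 without Control_day1 replicate 1 and 0.0333 without Control_day6 replicate 4, from exact permutation), −9.41 to −7.44 in the top 10 share, −14.5 to −12.6 in the top 100 share, −2.29 to −0.98 in the top gene share, −0.234 to −0.0669 in the STRG share and −2946987 to −843172 in total reads.

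Same-numbered deviations of day 1 and day 6 libraries correlated at 0.40, −0.01, −0.13, 0.01 and 0.25. These values cannot decide whether replicate numbers pair the libraries, since they also carry the separation of the day 6 libraries. Day 1 replicate 1 correlated at 0.48 with day 6 replicate 3. With the replicate block 5750 genes were called, 2822 higher and 2928 lower.

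Among the 60 named genes, 5 that were not called changed sign in some alternative, and 11 lost their call in at least 1. With library size alone these were CC84DRAFT_1254941, CC84DRAFT_158157, CC84DRAFT_1165014, CC84DRAFT_1258831 and CC84DRAFT_1160921, at −0.34 to −0.26 (limma adjusted p 0.0948 to 0.565). CC84DRAFT_1180339, CC84DRAFT_666498, CC84DRAFT_1226245, CC84DRAFT_1079376, CC84DRAFT_1226725, CC84DRAFT_1254941 and CC84DRAFT_1255865 lost it without day 6 replicates 1 and 3. With the edgeR test CC84DRAFT_1180339, CC84DRAFT_1079376, CC84DRAFT_1226725 and CC84DRAFT_1255865 lost it too (adjusted p 0.0623 to 0.138). With DESeq2, CC84DRAFT_1226725 and CC84DRAFT_1255865 did (adjusted p 0.0752 and 0.0647). Uncalled genes that gained a call in the same direction were CC84DRAFT_1219612 at −0.98 with the replicate block (limma adjusted p 0.0364), CC84DRAFT_1223420 at 0.85 with library size alone (0.0248), and, without day 6 replicates 2, 4 and 5, CC84DRAFT_1164934 at −4.90 and CC84DRAFT_1167663 at −3.52 (1.60e-07 and 3.78e-06). CC84DRAFT_1164934 turned to 0.66 with DESeq2, 0.59 with the edgeR test, 0.022 without day 6 replicate 1 (−1.81 to 0.022 over single replicates left out), 1.56 without 1 and 3, and 1.35 with day 1 replicate 1 left out too. CC84DRAFT_1167663 turned to 1.47 with DESeq2, 1.39 with edgeR, 0.27 with array weights, 0.45 with library size alone, 0.25 with a pseudocount of 2, 0.71 and 0.65 without day 6 replicates 1 or 3 (from −0.82 over single replicates left out), 2.21 without both and 1.99 with day 1 replicate 1 left out too. CC84DRAFT_1175385 turned to −1.51 with DESeq2, −1.58 with edgeR, −0.046 with a pseudocount of 2, −0.43 with the replicate block, −0.54 and −0.43 without day 1 replicates 5 or 6 (up to 0.95 over single replicates left out), −0.35 and −0.17 without day 6 replicates 1 or 3, and −0.71 without both. CC84DRAFT_1219612 turned to 0.42 with library size alone, 0.035 without day 1 replicate 1 and 1.00 without day 6 replicates 2, 4 and 5. CC84DRAFT_1223420 turned to −0.092 with array weights, −0.019 with the replicate block, −0.037 and −0.019 without day 1 replicates 2 or 6 (up to 0.18 over single replicates left out), −0.19 and −0.091 without day 6 replicates 1 or 3, −0.32 without both and −0.40 with day 1 replicate 1 left out too. CC84DRAFT_1164934 and CC84DRAFT_1167663 were called in opposite directions, depending on the day 6 libraries kept. Without day 6 replicates 1 and 3 both were called higher (limma adjusted p 0.00487 and 1.49e-04). With day 1 replicate 1 left out too they were again called higher (limma adjusted p 0.0117 and 3.22e-04). The cause of the changed signs and calls was not tested. Depth limits what can be said of genes near 3 reads, 0.0918 to 0.129 CPM in these libraries.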
